A study of Petunia x hybrida with 32 samples.

Results

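A set of 117 leaf transcripts of petunia was examined that carry no description in the deposited annotation and that were lower under salt at 24 h, but not at 6 h. They were chosen by measured values, out of 4767 transcripts, namely by 2 differences between group means, taken as log2 of the mean RPKM plus 1. The difference of salt-treated minus control leaves had to be -1.5 or lower at 24 h, and under 0.5 in size at 6 h. Of the 4767 transcripts, 3322 had no entry in the annotation and could enter the set after 6 components were left out by name. The 117 members came from 110 components, a component being a cluster of assembled sequences that stands for a gene, and its numbered sequences standing for its isoforms. RPKM is the number of mapped reads scaled to the length of the transcript and to the size of the library, so levels of different transcripts can be set side by side per length.

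The plants were petunia (Petunia x hybrida) of the genotype Mitchell Diploid, grown in aerated nutrient solution with light for 12 h per day. Salt-treated plants received 150 mM NaCl in the solution and were sampled 6 and 24 h later, and control plants received none and were sampled at both of these times and at 0 h. Each of these 5 groups had 3 biological replicates, each a pool of the youngest expanded leaves of 3 plants. The methods describe 3 groups of plants within a treatment and leaves taken at each time, so pools of a treatment at different times may share plants, and the labels do not say which. The 0 h and 24 h samples fall at the same hour of the day, and the 0 h control leaves entered no part of the rule that chose the members.

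Salt in the root medium acts on leaves first through water, since roots take it up less easily, and later through the sodium and chloride that build up in the tissue. Leaves commonly lower transcripts of growth, photosynthesis and plastid functions as the stress goes on, and many leaf transcripts also follow the hour of the day. A transcript assembled without a genome remains undescribed when no similar described sequence is found for it, as happens for short fragments, untranslated ends, noncoding RNA and genes that few species share, or when it was never searched.

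The lack of a description had more than one form among the members. Component numbers in the annotation ended at 26540, and 79 of the 117 members (67.5%) had a higher number, against 2285 of the 3322 undescribed transcripts that could enter the set (68.8%). The other 38 members lay within the numbers the annotation covers. The numbers of all 117 members ran between 8596 and 191912. The undescribed state was thus about as often of either form in the members as in the transcripts they were drawn from.

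Members were well above most undescribed transcripts in untreated leaves. Their mean RPKM in control leaves at 24 h had a median of 27.0 and ran between 2.73 and 1325, against a median of 3.28 in the 3205 other undescribed transcripts. All 117 reached 1 RPKM in 3 or more of the 15 replicates, the minimum for a test. In control leaves at 24 h, 4 members were above 1000 RPKM, 24 were above 100 and 26 were below 10. A transcript near 0 RPKM cannot be lower by 1.5 on this scale, so the rule itself leaves out those with little RNA in control leaves.

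The members' mean RPKM had a median of 16.2 in control leaves at 0 h. At 6 h the medians were 11.6 in salt-treated leaves and 11.0 in control leaves, and at 24 h they were 6.77 in salt-treated leaves and 27.0 in control leaves. The differences that chose the members are given as a description. The difference of salt-treated minus control leaves ran between -3.84 and -1.5 at 24 h, with a median of -1.88, and between -0.50 and 0.50 at 6 h, with a median of -0.11. As a ratio of mean RPKM, control leaves were 4.28 times as high as salt-treated leaves at the median of the 116 members with a level above 0 under salt, and 64 of them were at least 4 times as high. Bulk leaf RNA was measured, so fewer cells of a type and less RNA per cell cannot be told apart.

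Added together, the members made up a sizeable part of the table. Their summed RPKM at 24 h was 3097, 3875 and 3175 in the 3 salt-treated replicates, against 15985, 13064 and 12096 in the 3 control replicates. These sums averaged 3383 ± 428 in salt-treated leaves and 13715 ± 2024 in control leaves (SD, n = 3 each). As a share of all RPKM in the table, they were 1.86% to 2.23% in salt-treated leaves at 24 h and 5.84% to 6.80% in control leaves at 24 h. At 6 h the sums of salt-treated leaves were 8460, 13031 and 11240, against 14898, 10870 and 9332 in control leaves. The 2 groups overlapped in summed RPKM at 6 h. Their shares of the table did not, at 3.89% to 4.82% in salt-treated leaves and 6.04% to 7.14% in control leaves. The total of the table also differed at 6 h, at 217496 to 270347 RPKM in salt-treated leaves and 154450 to 208690 in control leaves. The shares depend on that total as well as on the members. The control leaves at 0 h, which had no part in the choice, held 5.96% to 6.52%, within the range spanned by the control leaves at both later times. Their sums were 8515 to 9415 RPKM, however, below every control replicate at 24 h. The total of the table was also lower at 0 h, at 142850 to 155157 RPKM, against 207177 to 234957 in control leaves at 24 h.

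The most abundant members lay near or above 1000 RPKM in control leaves at 24 h. At that time comp28524_c0_seq1 had 241, 495 and 187 RPKM in salt-treated leaves, against 1544, 1399 and 1031 in control leaves. For comp28455_c0_seq1 the values were 318, 353 and 324 RPKM in salt-treated leaves, against 1591, 1004 and 1134 in control leaves. In comp28350_c0_seq1 they were 265, 293 and 276 RPKM in salt-treated leaves, against 1250, 872 and 1119 in control leaves. In each of these, the highest salt-treated replicate stayed below the lowest control replicate. The salt-treated replicates of comp28524_c0_seq1 were spread wider than those of the other 2, and its control leaves at 0 h ranged more widely still, at 90.4, 637 and 758 RPKM.

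Another 3 of the 10 most abundant members were close to one another at 24 h. comp28744_c0_seq1 had 118, 139 and 156 RPKM in salt-treated leaves, against 579, 455 and 485 in control leaves. comp28327_c0_seq1 had 117, 147 and 102 RPKM in salt-treated leaves, against 551, 364 and 468 in control leaves. comp28987_c0_seq1 had 141, 177 and 133 RPKM in salt-treated leaves, against 505, 433 and 426 in control leaves. The highest salt-treated replicate of these transcripts was at 177 RPKM and the lowest control replicate at 364. Slightly higher in control leaves was comp28681_c0_seq1, with 125, 178 and 131 RPKM in salt-treated leaves, against 771, 520 and 509 in control leaves.

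**Figure D1:**
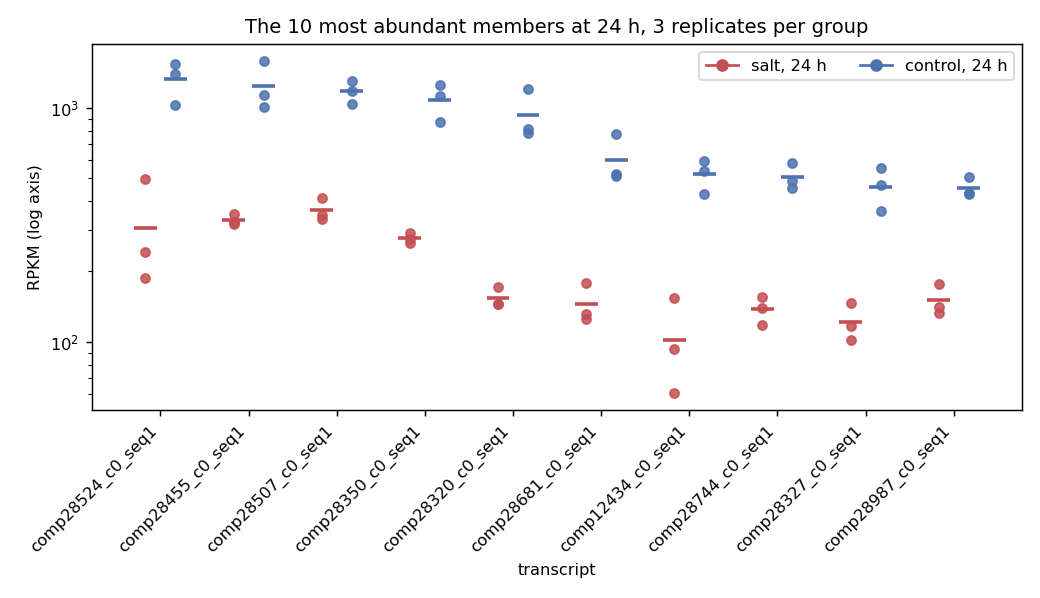
RPKM at 24 h of the 10 members with the highest mean in control leaves, on a log axis, with salt-treated leaves left of control leaves for each transcript, a point for each of 3 replicates and a bar at the mean. In all 10 the salt-treated replicates lie below the control replicates, for example at 318 to 353 against 1004 to 1591 RPKM in comp28455_c0_seq1.

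Among all 117 members, 101 had every salt-treated replicate below every control replicate at 24 h, which held for 25.2% of the 4658 tested transcripts. By the limma test with an FDR of 0.001 and a log2 change of 1, 78 members were called lower, against 7.17% of all tested transcripts, and 0 were called higher, against 7.36%. At an unadjusted limma p below 0.05, 115 members were lower, where 25.9% of all tested transcripts were, and 0 higher, where 28.2% were. Since the rule used this contrast, nothing is read from these counts. At 6 h, where the rule asked for a small difference, limma called 0 members higher, against 3.05% of tested transcripts, and 0 lower, against 1.93%, with 1 in each direction at an unadjusted p below 0.05, where 22.5% of tested transcripts were higher and 24.3% lower.

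The 16 members whose groups overlapped at 24 h all did so through 1 replicate. Without control replicate 3 of 24 h, no member overlapped, and without control replicate 1 or replicate 2, all 16 still did. Replicate 3 was also the lowest of the 3 control replicates at 24 h in 65 of the 117 members, replicate 2 in 41 and replicate 1 in 11. The member with the lowest difference of all, comp27006_c0_seq1 at -3.84, is among the 16. It had 17.9, 9.99 and 25.3 RPKM in salt-treated leaves, against 351, 449 and 2.77 in control leaves, so that the third control replicate lay below every salt-treated one. In comp26873_c0_seq2 all 3 salt-treated replicates were listed at 0, against 5.24, 6.62 and 0 RPKM in control leaves. Its control leaves at 0 h had 0.835, 2.25 and 13.7 RPKM, and no fold is given for it.

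The largest differences without such overlap were found at high as well as low abundance, and comp28320_c0_seq1 and comp12434_c0_seq1 of the most abundant members were among them at -2.59 and -2.33. At 24 h comp16990_c0_seq2 had 3.48, 4.28 and 5.65 RPKM in salt-treated leaves, against 64.0, 46.0 and 51.8 in control leaves, a difference of -3.33. Its isoform comp16990_c0_seq3, also a member, had 3.41, 4.33 and 5.32 RPKM in salt-treated leaves, against 49.6, 48.7 and 40.0 in control leaves, a difference of -3.14. The isoforms thus gave nearly the same picture, although reads of a shared stretch can be split between them and they are not independent. Both fell well below the control leaves at 0 h, where comp16990_c0_seq2 had 46.4, 30.4 and 25.8 RPKM.

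comp37174_c0_seq1 had 3.77, 2.56 and 9.43 RPKM in salt-treated leaves at 24 h, against 62.1, 54.3 and 42.1 in control leaves, a difference of -3.11. In comp55840_c0_seq1 the values were 1.54, 1.19 and 1.73 RPKM in salt-treated leaves, against 13.5, 8.78 and 26.1 in control leaves, a difference of -2.79. In comp65143_c0_seq1 they were 1.04, 1.21 and 1.34 RPKM in salt-treated leaves, against 16.6, 11.7 and 13.7 in control leaves, a difference of -2.77. The last 2 were near 1 RPKM in all salt-treated replicates at 24 h, where a single value rests on few reads. Their control leaves at 0 h were lower than at 24 h, at 6.85, 4.89 and 9.31 RPKM in comp55840_c0_seq1 and at 5.58, 4.96 and 2.81 RPKM in comp65143_c0_seq1.

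The remaining named members with large differences were comp28501_c0_seq1 at -2.61, whose values are given below, comp57201_c0_seq1 at -2.57, comp29477_c0_seq1 at -2.25 and comp31712_c0_seq1 at -2.24. comp57201_c0_seq1 had 0.57, 0.70 and 0.50 RPKM in salt-treated leaves at 24 h, against 9.22, 7.34 and 8.83 in control leaves. comp29477_c0_seq1 was far more abundant, with 55.9, 69.4 and 75.2 RPKM in salt-treated leaves, against 329, 343 and 294 in control leaves. comp31712_c0_seq1 was the most variable of them, with 11.8, 17.9 and 38.1 RPKM in salt-treated leaves, against 99.0, 149 and 84.2 in control leaves. No replicates of the 2 groups overlapped in these members. Also free of overlap was comp26768_c1_seq3, at -2.39 a larger difference than the last 2, with 0.895, 1.07 and 2.95 RPKM in salt-treated leaves, against 15.7, 16.9 and 5.80 in control leaves. It is named after its values were seen, since a more abundant isoform stood for its component.

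Untreated leaves could be compared between hours because control leaves at 0 h were outside the rule, although control leaves at 6 h entered it. The paper holds that changes between control leaves likely come from the daily rhythm and from damage by sampling. These cannot be told apart here. In limma, 7 of the 117 members were called higher in control leaves at 6 h than at 0 h, where 15.2% of all tested transcripts were, and 11 were called lower, where 10.8% were. The members' median change was -0.26, against -0.08 for all tested transcripts. The 18 called members were thus 5.98% higher and 9.40% lower, and 99 members were not called. With the 15 replicates left out in turn, 11 of these 18 calls were made every time, and 7 were lost at least once.

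The 7 members that were higher at 6 h in control leaves made a group with its own course. comp23782_c0_seq1 rose by 3.21 on the log2 scale (SE 0.35, limma adjusted p = 2.08e-06), with 58.7, 38.1 and 36.0 RPKM at 6 h against 5.19, 2.13 and 4.68 at 0 h. In comp28957_c0_seq1 the rise was 2.82 (SE 0.23, limma adjusted p = 9.29e-08), with 461, 304 and 385 RPKM at 6 h against 52.7, 46.0 and 60.2 at 0 h. In comp12099_c0_seq1 it was 2.55 (SE 0.30, limma adjusted p = 4.96e-06), with 356, 247 and 246 RPKM at 6 h against 44.8, 41.7 and 55.3 at 0 h. In these members every 6 h replicate was several times as high as any 0 h replicate. The low-abundance comp94517_c0_seq1 rose by 1.88 (SE 0.26, limma adjusted p = 2.61e-05), with 7.49, 5.84 and 6.64 RPKM at 6 h against 1.29, 0.750 and 1.23 at 0 h.

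Salt-treated leaves had like levels at 6 h, as the rule required, and at 24 h they were lower than control leaves. comp28957_c0_seq1 had 388, 504 and 423 RPKM in salt-treated leaves at 6 h and 20.4, 27.2 and 21.3 at 24 h, while control leaves at 24 h had 87.8, 54.4 and 78.9. comp23782_c0_seq1 had 56.7, 56.1 and 49.7 RPKM in salt-treated leaves at 6 h and 2.85, 3.36 and 2.22 at 24 h, while control leaves at 24 h had 7.97, 9.75 and 23.2. comp12099_c0_seq1 had 308, 485 and 408 RPKM in salt-treated leaves at 6 h and 39.6, 58.2 and 23.7 at 24 h, while control leaves at 24 h had 126, 186 and 205. In control leaves the 3 were thus still above their 0 h means at 24 h. Under salt at 24 h they lay below those means in comp28957_c0_seq1 and close to them in comp23782_c0_seq1 and comp12099_c0_seq1, where the replicates overlapped those of 0 h.

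2 members of this group carry a description in the study's own material outside the annotation. comp12434_c0_seq1 is described there as an extensin-like protein, extensins being structural glycoproteins of the cell wall, and comp12099_c0_seq1 as similar to a hypothetical peach protein. comp23782_c0_seq1 and comp25677_c1_seq2 are listed there without a match. At 24 h comp12434_c0_seq1 had 92.8, 154 and 60.2 RPKM in salt-treated leaves, against 594, 538 and 428 in control leaves. It rose by 2.14 in control leaves between 0 and 6 h (SE 0.43, limma adjusted p = 0.000649), with 796, 831 and 474 RPKM at 6 h against 68.9, 208 and 252 at 0 h. That call was lost in 6 of the 15 fits with 1 replicate left out, in which the adjusted p rose to as much as 0.00392, and with the replicate number as a block within each treatment (limma adjusted p = 0.00211). Its values moved with those of the most abundant member: over the 15 replicates the log2 levels of comp12434_c0_seq1 and comp28524_c0_seq1 had a Pearson r of 0.98, given as a description of a pair picked after its values were seen.

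Another member of the group, comp28320_c0_seq1, stood out by its level at 6 h. It had 1143, 2170 and 1362 RPKM in salt-treated leaves and 2235, 1351 and 1550 in control leaves at 6 h. At 24 h it had 172, 146 and 144 RPKM in salt-treated leaves, against 1203, 780 and 810 in control leaves. At 0 h control leaves had 475, 605 and 671 RPKM, so its level under salt at 24 h was below that of every control replicate at any time. Its rise of 1.53 between 0 and 6 h in control leaves (SE 0.27, limma adjusted p = 0.000206) was not called without control replicate 1 of 0 h or of 6 h.

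The 11 members that were lower at 6 h in control leaves had the opposite course. comp13832_c0_seq1 fell by 2.92 (SE 0.34, limma adjusted p = 4.08e-06), with 16.2, 9.29 and 11.4 RPKM at 6 h against 139, 91.8 and 72.7 at 0 h. comp25677_c1_seq2 fell by 2.87 (SE 0.29, limma adjusted p = 9.33e-07), with 1.29, 0.660 and 0 RPKM at 6 h against 8.56, 10.2 and 12.7 at 0 h. comp28501_c0_seq1 fell by 2.55 (SE 0.28, limma adjusted p = 2.3e-06), with 2.39, 2.90 and 1.27 RPKM at 6 h against 16.3, 18.1 and 17.3 at 0 h. None of their 6 h replicates reached the lowest 0 h replicate. In comp36400_c0_seq1 the fall was 2.27 (SE 0.27, limma adjusted p = 6.22e-06), with 10.9, 7.05 and 8.20 RPKM at 6 h against 45.0, 45.8 and 44.4 at 0 h.

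At the median of these 11 members, control leaves rose by 2.23 between 6 and 24 h and salt-treated leaves by 0.57. These groups entered the rule, so this is a description. Control leaves at 24 h minus those at 0 h ran between -0.72 and 1.32, so some members stayed below and others passed their 0 h level. The most abundant of them, comp28507_c0_seq1, had 106, 192 and 142 RPKM in salt-treated leaves at 6 h and 334, 413 and 349 at 24 h. Control leaves had 968, 978 and 756 RPKM at 0 h, 213, 162 and 189 at 6 h and 1299, 1040 and 1186 at 24 h. Salt-treated leaves at 24 h were thus above both treatments at 6 h and below every control replicate of 0 and 24 h. The fall of 2.25 in control leaves between 0 and 6 h had an SE of 0.22 (limma adjusted p = 7.7e-07). comp28501_c0_seq1 had 1.87, 2.95 and 1.07 RPKM in salt-treated leaves at 6 h and 3.48, 5.2 and 6.39 at 24 h, while control leaves at 24 h had 39.4, 32.5 and 35.3.

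A fuller return under salt was seen in comp25677_c1_seq2, with 7.11, 8.76 and 9.41 RPKM in salt-treated leaves at 24 h, near the 0 h control values, while control leaves at 24 h had 29.1, 23.2 and 30.5. comp36400_c0_seq1 changed less, with 6.19, 6.5 and 5.3 RPKM in salt-treated leaves at 6 h and 8.24, 7.0 and 6.34 at 24 h, while control leaves at 24 h had 30.3, 39.9 and 16.1. comp13832_c0_seq1 had 27.0, 50.7 and 24.4 RPKM in salt-treated leaves at 24 h, against 220, 129 and 125 in control leaves. Its course was the closest match among the pairs of members from different components, with a Pearson r of 0.99 to comp28507_c0_seq1 over the 15 replicates. Such a likeness is a description, and whether the sequences belong to 1 gene was not tested.

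**Figure D2:**
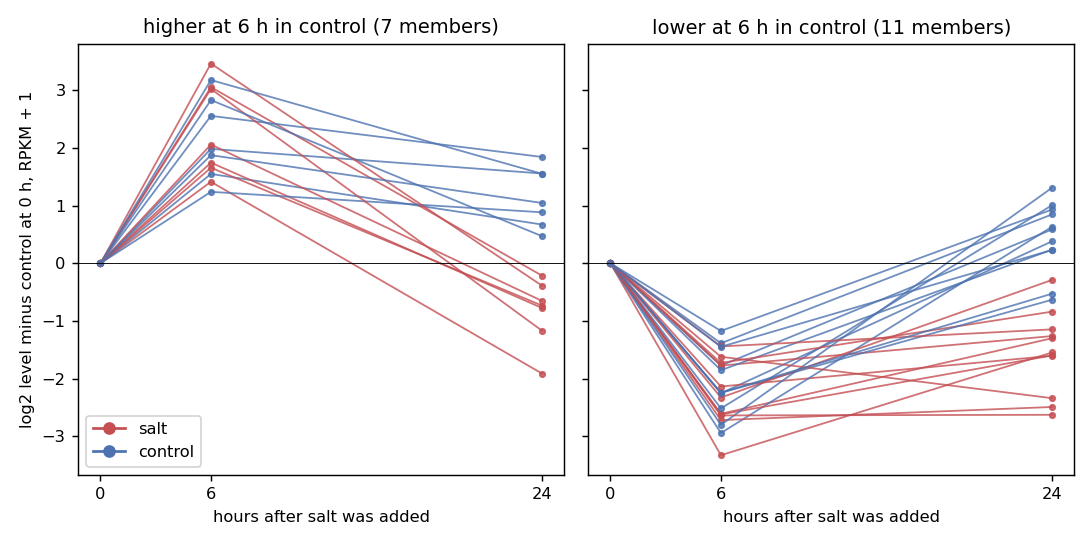
Log2 level (mean RPKM plus 1) minus that of control leaves at 0 h, for the 7 members called higher (left) and the 11 called lower (right) in control leaves at 6 h than at 0 h, with lines for salt-treated and control leaves over the 3 sampling times in hours. The lines of both treatments run together up to 6 h and part by 24 h, with salt below control in each member, as the rule required.

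Between 6 and 24 h the gap could open through control leaves, through salt-treated leaves or through both. Members with a called rise in control leaves alone or a called fall under salt alone were found. No member was called both higher in control leaves and lower in salt-treated leaves. All 4 groups entered the rule, so these counts are a description. In 35 members salt-treated leaves were called lower at 24 h than at 6 h and control leaves were not called, with median changes of -1.89 under salt and 0.02 in control leaves. In 21 members control leaves were called higher at 24 h than at 6 h and salt-treated leaves were not called, with median changes of 0.03 under salt and 2.03 in control leaves. Both treatments were called higher in 3 members, both were called lower in 2, and in 56 neither change was called, with medians of -0.79 under salt and 0.90 in control leaves.

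Salt-treated leaves at 24 h were called lower than at 6 h in 37 members, where 16.8% of all tested transcripts were, and higher in 3, where 13.6% were. Control leaves at 24 h were called higher than at 6 h in 24 members, where 12.8% of tested transcripts were, and lower in 2, where 19.8% were. The 7 members that were high at 6 h in control leaves lay among those whose level fell under salt, 5 in the kind with salt lower alone and 2 in the kind with both lower. Of the 11 that were low at 6 h, 7 were of the kind with control higher alone, 3 of the kind with both higher and 1 of the kind with neither change called.

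**Figure D3:**
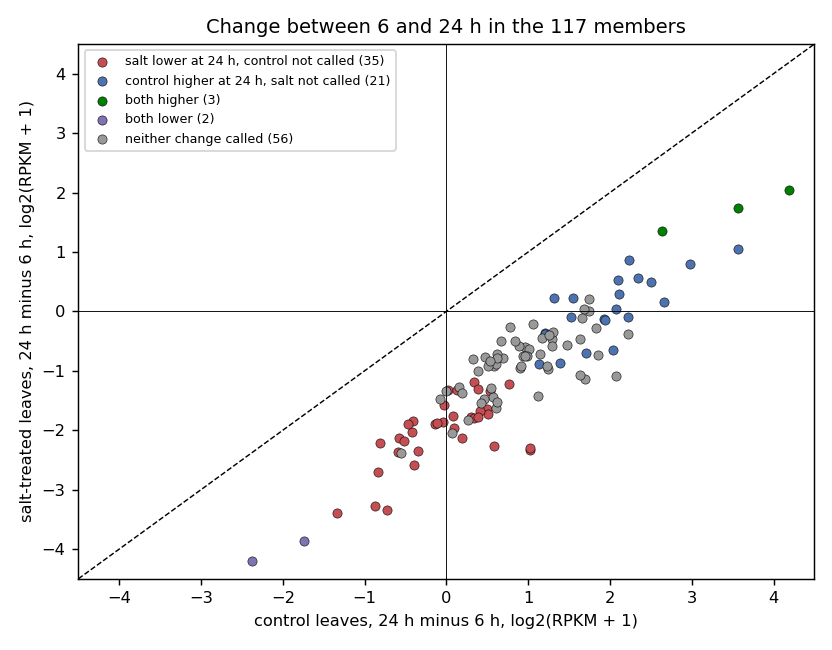
Change between 6 and 24 h of each of the 117 members, as the log2(RPKM + 1) difference of 24 h minus 6 h, with control leaves on the horizontal and salt-treated leaves on the vertical axis, and colours for the kinds of change called. All points lie below the dashed line of equal change because the rule required it, and they spread along that line from 2 members lower in both treatments to 3 higher in both.

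Set against control leaves at 0 h, which share the hour of day, the salt-treated leaves at 24 h were lower in mean RPKM in all 117 members. Salt-treated leaves at 24 h were chosen low and control leaves at 24 h high by the rule, so both comparisons with 0 h lean in a known direction. In limma, 46 members were called lower in salt-treated leaves at 24 h than in control leaves at 0 h, where 12.6% of all tested transcripts were, and 0 were called higher, where 13.7% were. At an unadjusted limma p below 0.05, 99 were lower, where 37.7% of all tested transcripts were, and 0 higher, where 29.0% were. The median change was -1.35, against -0.24 for all tested transcripts. The count of 46 was 30 without control replicate 1 of 0 h, 27 without control replicate 2 of 0 h, 28 without salt-treated replicate 1 and 30 without salt-treated replicate 3. In 97 members no salt-treated replicate at 24 h reached the lowest control replicate at 0 h, which held for 38.8% of all tested transcripts.

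Control leaves at 24 h, by contrast, were called higher than at 0 h in 3 members, where 3.28% of all tested transcripts were, and lower in 0, where 3.56% were. At an unadjusted limma p below 0.05, 46 members were higher, where 20.7% of all tested transcripts were, and 4 lower, where 27.5% were. The median change was 0.53, with 94 members above and 23 below 0. The called members were comp12099_c0_seq1, comp70834_c0_seq1 and comp23160_c0_seq2. Of the 3 calls, 1 was made without control replicate 1 of 0 h or of 24 h, and 0 without control replicate 2 of 0 h, replicate 2 of 24 h or replicate 3 of 24 h. With the replicate number as a block within each treatment, 0 were called. In log2 level, control leaves at 0 h were nearer to control leaves at 24 h than to salt-treated leaves at 24 h in 87 members, and in 30 they were not. Both groups at 24 h entered the rule and no share over all transcripts was computed, so nothing is read from this count.

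With the looser limit of an FDR of 0.05 and no minimum of change, more members were called, and so were more of all transcripts. At 6 h against 0 h in control leaves, 17 members were higher, where 29.0% of all tested transcripts were, and 31 lower, where 28.1% were. At 24 h against 0 h in control leaves, 39 were higher, where 16.2% were, and 3 lower, where 22.1% were. For salt-treated leaves at 24 h against control leaves at 0 h, 94 members were lower, where 35.0% were, and 0 higher, where 27.5% were.

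For the contrasts within the rule, the same limit gave counts that are again only a description. Control leaves at 24 h were higher than at 6 h in 58 members, where 27.4% of all tested transcripts were, and lower in 7, where 34.2% were. Salt-treated leaves at 24 h were lower than at 6 h in 65 members, where 32.1% were, and higher in 5, where 28.3% were. Against control leaves at 24 h, salt-treated leaves were lower in 114 members, where 22.3% were, and higher in 0, where 24.2% were. At 6 h, 0 members were lower or higher under salt, where 17.2% and 17.3% of tested transcripts were.

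The control leaves at 24 h lay on different sides of those at 0 h in different members, as 2 examples show. comp30203_c0_seq1 had 19.3, 22.7 and 21.1 RPKM in salt-treated leaves at 24 h and 92.1, 60.7 and 63.4 in control leaves at 24 h, against 198, 141 and 94.3 in control leaves at 0 h. In it, every control replicate at 24 h lay below every control replicate at 0 h, and every salt-treated replicate lower again. comp70834_c0_seq1 had 2.16, 2.21 and 2.02 RPKM in salt-treated leaves at 24 h and 16.1, 12.7 and 11.4 in control leaves at 24 h, against 4.69, 5.31 and 4.03 in control leaves at 0 h. Here the control leaves at 24 h were the group that stood apart, and salt-treated leaves at 24 h were close to both treatments at 6 h, which had 2.18, 2.88 and 2.20 RPKM under salt and 3.13, 2.80 and 2.34 in control leaves. Both were picked for naming after their values were seen.

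Some members belong to components in which another isoform carries a description. comp10877_c0_seq2 is an isoform of a component whose comp10877_c0_seq1 is described as an aquaporin of the TIP4 type, a water channel of the vacuolar membrane. At 24 h comp10877_c0_seq2 had 3.69, 9.73 and 8.16 RPKM in salt-treated leaves, against 30.5, 20.4 and 22.8 in control leaves. The aquaporin isoform had 8.27, 11.9 and 12.4 RPKM in salt-treated leaves, against 40.2, 42.6 and 46.7 in control leaves, and also met the rule of values. Salt-treated and control replicates were apart in both isoforms.

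comp14278_c0_seq2 shares its component with comp14278_c0_seq1, described as a nonspecific lipid-transfer protein, a class of small secreted proteins that bind lipids. The member had 13.4, 9.74 and 11.7 RPKM in salt-treated leaves at 24 h, against 52.4, 23.4 and 34.0 in control leaves. The described isoform had 8.16, 6.32 and 7.80 RPKM in salt-treated leaves, against 28.8, 21.4 and 22.4 in control leaves. In the same way comp22613_c0_seq2 shares its component with an uncharacterized protein, comp22613_c0_seq4. That member had 13.8, 13.5 and 13.1 RPKM in salt-treated leaves at 24 h, against 71.2, 55.0 and 61.4 in control leaves, and the described isoform had 8.68, 8.29 and 7.88 RPKM, against 32.0, 30.9 and 32.6. In these pairs the described isoform met the rule of values too.

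The component of comp25350_c0_seq5 was different. Its described isoforms are flowering locus T, the mobile flowering signal, and a retroelement polyprotein. comp25350_c0_seq5 had 0.250, 1.26 and 0.920 RPKM in salt-treated leaves at 24 h, against 7.25, 4.30 and 8.78 in control leaves. The flowering locus T isoform comp25350_c0_seq4 was below 1 RPKM in all replicates of both groups at 24 h. The retroelement isoform comp25350_c0_seq2 had 0.0900, 0.270 and 0.550 RPKM in salt-treated leaves, against 2.94, 2.80 and 8.41 in control leaves, and missed the rule by its difference of -0.67 at 6 h. In this component the member and the retroelement isoform were lower in salt-treated leaves, and the flowering isoform was too low in both groups to compare.

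**Figure D4:**
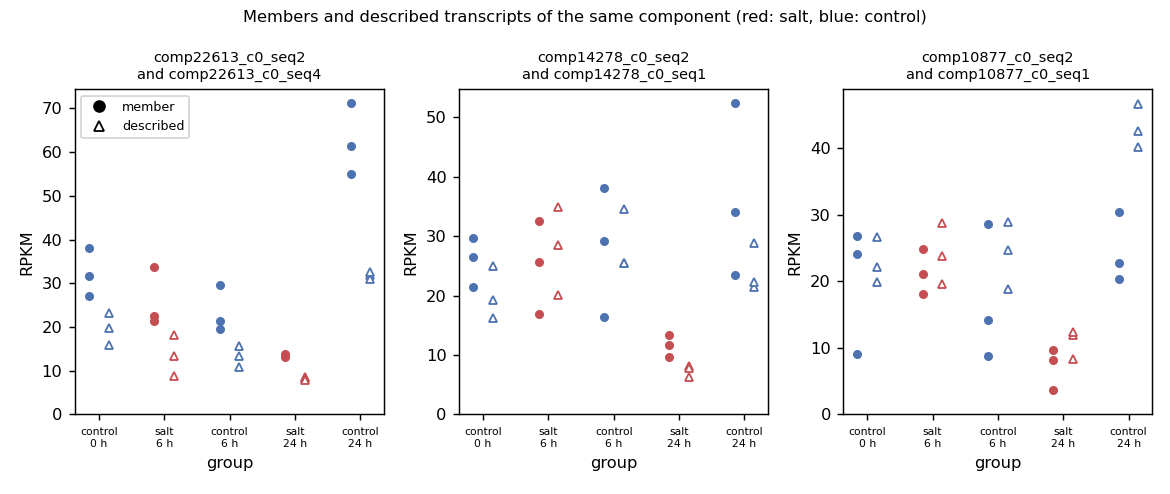
RPKM of 3 members (filled circles) and of the described isoform of the same component (open triangles) in each of 5 groups, with salt-treated leaves in red left of control leaves in blue at 6 and 24 h, and a mark for each of 3 replicates. Only pairs in which the described isoform also met the rule of values are drawn, and the component of comp25350_c0_seq5 is not shown. Both isoforms of each pair therefore lie lower in salt-treated than in control leaves at 24 h by selection. In comp10877_c0_seq1, for example, they lie at 8.27 to 12.4 against 40.2 to 46.7 RPKM.

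More widely, 7 components held 2 members each, and 16 components of members held 25 other isoforms with values. Of these 25, 21 had a negative difference at 24 h, and 9 of them reached -1.5. The 4 isoforms with a positive difference were 3 of the component of comp26873_c0_seq2, at 0.33 to 0.45, and the flowering locus T isoform at 0.04. Among all 4658 tested transcripts, 2302 had a limma change below 0 at 24 h. Of the 3322 undescribed transcripts that could enter the set, 350 reached -1.5. The components were picked because a member was lower, so the counts of their other isoforms are a description. Isoform levels come from an estimate that divides shared reads between isoforms, so isoforms of a component are not independent measurements, and a gain in 1 can be a loss in another.

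Described transcripts that met the same rule of values give a view of which known genes had this course. They numbered 48 of 1418 tested (3.39%), against 117 of 3229 tested undescribed ones (3.62%), so the course was about as frequent with as without a description. Their differences had a median of -1.83 at 24 h and -0.17 at 6 h. By lists of descriptions, 3 of 9 photosynthesis transcripts met the rule, 2 of 10 of lipids and cuticle, 1 of 29 of cell wall and growth, 3 of 83 of water and solute transport, 3 of 86 transcription factors and 2 of 85 kinases. Of 21 transcripts of auxin and growth hormones, 31 of DNA replication and cell division and 6 of the clock, 0 met it. At 24 h, transcripts of the first 2 lists were called in both directions. By limma, 2 photosynthesis transcripts were called higher and 3 lower, with a median of -0.09 over the list, and of lipids and cuticle 1 was called higher and 3 lower, with a median of 0.72. No set test was made on these counts, which are small.

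The photosynthesis transcripts among them included a chlorophyll a-b binding protein, which gathers light for the photosystems, and ferredoxin I, which carries electrons from photosystem I. comp25306_c0_seq3, the binding protein, had 1176, 1205 and 1263 RPKM in salt-treated leaves at 24 h, against 4822, 3961 and 3470 in control leaves. comp12521_c2_seq1, the ferredoxin, had 175, 204 and 164 RPKM in salt-treated leaves, against 852, 673 and 474 in control leaves. No replicates of the 2 groups overlapped. Among the regulators, comp16091_c0_seq1, a subunit of the transcription factor NF-Y, had 22.3, 17.4 and 18.7 RPKM in salt-treated leaves, against 91.9, 93.2 and 95.6 in control leaves.

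The described transcripts whose log2 levels were most like the mean profile of the members over the 15 replicates were an endo-beta-glucanase precursor (comp15012_c0_seq1, Pearson r of 0.92), a neomenthol dehydrogenase-like protein (comp23737_c0_seq3, 0.92), the TIP4 aquaporin named above (0.91) and a mitochondrial porin (comp25615_c0_seq1, 0.91). Of the 10 most alike, 8 met the rule of values. The members' own r with their mean profile ran between 0.24 and 0.97, with a median of 0.74, and 74 of the 117 were above 0.7. These values describe likeness only, since members were chosen for part of the profile.

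Across the table, sums of marker transcripts also differed between treatments at 24 h, some lower and some higher under salt. The 7 leaf photosynthesis markers summed to 1221 to 1311 RPKM in salt-treated leaves, against 3559 to 4929 in control leaves at 24 h. Of the 7, 2 were called lower. Most of this sum was 1 transcript, the comp25306_c0_seq3 named above. It had 1176 to 1263 RPKM in salt-treated leaves and 3470 to 4822 in control leaves, so the sums say little of the other markers. The 8 epidermis and cuticle markers summed to 1738 to 2178 RPKM in salt-treated leaves, against 885 to 1513 in control leaves. By limma 1 of them was called higher and 2 lower, and 5 were higher and 3 lower at an unadjusted p below 0.05. Their sum was thus higher under salt while single markers went both ways. The 8 xylem markers summed to 163 to 219 RPKM in salt-treated leaves, against 250 to 275 in control leaves. By limma 1 of these was called lower, and 0 were higher and 2 lower at an unadjusted p below 0.05. The 9 markers of dividing cells summed to 19.7 to 22.7 RPKM in salt-treated leaves, against 11.0 to 17.8 in control leaves, with 0 called by limma, and 2 higher and 1 lower at an unadjusted p below 0.05. The 3 petal pigment markers summed to 44.6 to 51.5 RPKM in salt-treated leaves, against 27.9 to 42.6 in control leaves, with 0 called by limma, and 1 higher at an unadjusted p below 0.05. No marker of any list was under 1 RPKM in all replicates. Their part in the members' values was not tested. The table's own RPKM sum was 154426 to 173539 in salt-treated leaves and 207177 to 234957 in control leaves at 24 h, and 142850 to 270347 over all 15 replicates.

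The rule cuts through a continuous range. Just inside the limit at 24 h were comp47920_c0_seq1 and comp42210_c0_seq1, both at -1.5, and just outside it comp22613_c0_seq3 and comp28269_c0_seq1, both at -1.49. At 6 h comp12099_c0_seq1 and comp41213_c0_seq1 were just inside at 0.50 and -0.50, and comp8771_c0_seq1 at -0.51 and comp34457_c0_seq1 at -0.52 just outside. In all, 350 undescribed transcripts had a difference of -1.5 or lower at 24 h, of which 151 had one of -0.5 or lower at 6 h and 82 one of 0.5 or higher, which leaves the 117 members.

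Replicates had been sequenced from libraries made with 2 kinds of index primer, purified by HPLC or not, of which 28 were used. In control leaves at 6 h, 1 replicate had an HPLC library only, since its non-HPLC library failed in the study. With the HPLC libraries alone, 99 of the 117 members had a difference of -1.5 or lower at 24 h and 116 one of -1 or lower, with a median of -1.82. The non-HPLC libraries used were 2 for control leaves at 6 h and 2 for salt-treated leaves at 24 h, where 1 column was left out. With the non-HPLC libraries alone, 108 reached -1.5 and 117 reached -1, with a median of -2.05. Both limits of the rule held for 85 members in the HPLC and 82 in the non-HPLC libraries. Libraries of both kinds came from the same RNA, so they share its biological error. The rule used the means of these same libraries, so most members had to pass in each kind. The counts are therefore a description and no independent check.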

How the data were processed

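Values were the RPKM that the authors computed per transcript isoform with RSEM on a Trinity assembly of all reads and deposited. The deposited annotation text came from Blast2GO. Tool versions, how the 4767 transcripts were picked and any further scaling are not given in the sources used here. Counts behind an RPKM are unknown, so depth gives no interval and precision rests on 3 replicates per group.

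Of 29 columns 28 were used, with 6 per group but 5 for control leaves at 6 h and 5 for salt-treated leaves at 24 h. Salt at 24 h has fewer labelled samples than columns, since 1 of its replicates has only 1 label. The labels do not give the primer, so they do not say which column of that replicate is meant. Its non-HPLC column was left out, although the study lists reads for that library. Control leaves at 6 h have more labelled samples than columns, and the study states that 1 of their non-HPLC libraries failed. The 3 labelled salt samples at 0 h were not analysed here. The HPLC and non-HPLC libraries of a replicate were averaged. Contig lengths of other assemblies were not used here.

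limma 3.58.1 in R 4.3.3 was fitted to log2(RPKM + 1) of all 5 groups with a variance trend, for the 4658 transcripts that reached 1 RPKM in 3 or more of 15 replicates (109 were not tested). Adjusted p are Benjamini-Hochberg values over all 4658. A call needed an FDR of 0.001 or lower and a log2 change of at least 1, the limits of the study. A log2 change on this scale understates the change of low transcripts. The fit was tested on simulated data, and alternatives changed the pseudocount, filter, libraries, groups in the fit, scaling, block, FDR and replicates. Figures were drawn with matplotlib 3.10.9.

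Members given by replicate were the 10 highest in control leaves at 24 h, the 10 with the largest difference without overlap (only the most abundant member of a component being eligible), the 5 highest and 5 lowest called changes at 6 h in control leaves, and members of components with a described isoform, unless said otherwise. The members, the 9 lists and the markers were chosen with earlier results of these data known.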

Additional observations from a re-analysis of the deposited data

How the results depend on the processing

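All calls rest on 3 pools per group and on RPKM without counts. Members called for control 6 h against 0 h numbered 18, for control 24 h against 0 h 3, for salt 24 h against control 0 h 46, for control 24 h against 6 h 26 and for salt 24 h against 6 h 40. An FDR of 0.05 with no fold minimum gave 48, 42, 94, 65 and 70 in that order. HPLC libraries alone gave 11, 0 and 16 for control 6 h against 0 h, control 24 h against 0 h and control 24 h against 6 h. A fit of the compared groups only gave 0 for control 24 h against 0 h and 13 for control 24 h against 6 h. For control 24 h against 0 h, a pseudocount of 0.1 gave 1, each library as a sample gave 8 and replicates set to the same median gave 5. Leaving out 1 replicate gave 12 to 23 for control 6 h against 0 h, 0 to 4 for control 24 h against 0 h, 27 to 54 for salt 24 h against control 0 h, 18 to 33 for control 24 h against 6 h, 32 to 43 for salt 24 h against 6 h and 54 to 83 for salt 24 h against control 24 h (78 with all). The cause of these shifts was not tested. No alternative reversed a count, and salt against control at 6 h gave 0 throughout.

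The rule found 117 members. It found 41 with a limit of -2 at 24 h, 220 with a limit of 1 at 6 h, and 104 to 140 with 1 replicate left out, and 42 members were in every one of those lists with a replicate left out. It found 142 with a pseudocount of 0.1 (99 shared), 112 with HPLC libraries alone (85 shared), 128 with equal medians (105 shared) and 113 with means of logs (105 shared).

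Setting replicates to the same median moved the median of all tested transcripts from -0.08 to 0.12 for control 24 h against 0 h, where 222 were then called higher and 66 lower, against 153 and 166. For salt 24 h against control 0 h the median moved from -0.24 to -0.09 and the split was 798 higher and 423 lower, against 638 and 589. For control 24 h against 6 h the median moved from -0.08 to 0.18 and the split was 833 and 713, against 597 and 920, and for salt 24 h against 6 h the median moved from -0.14 to -0.03.

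Whether replicate numbers follow the same plants over time is not stated. Of 30 same-numbered pairs 6 had a correlation of deviations over 0.1 (-0.26 to 0.29), and 5 of the 12 pairs within a treatment. With the replicate number as a block, the calls numbered 16, 2, 43, 23, 40 and 74 in the order above with salt 24 h against control 24 h last. With a block within each treatment, chosen after seeing the data, they numbered 15 for control 6 h against 0 h, 0 for control 24 h against 0 h, 25 for control 24 h against 6 h and 41 for salt 24 h against 6 h.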
